A study of Equus caballus with 32 samples.

Results

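The genes described here code for the proteasome, the protein-degrading complex of the cytosol and nucleus, in whole blood of mares. They were taken from the array by name, as every non-control probe whose gene name in the scanner files is PSMA, PSMB, PSMC, PSMD, PSME, PSMF or PSMG followed by a number, without PSMB8 and PSMB9. The rule found 43 of the array's 13616 named genes, on 78 of its 43987 probes, and a gene with several probes was represented by the probe that was brightest on average over the arrays. PSMD7, PSME3 and PSMG4 were not found under these names and are not analysed here. The brightest probes of 41 genes stood well above background on every array on which they were measured. PSMA8, whose product is known from the testis, was well above background on 0 of 32 arrays, and PSMB11, whose product is known from the thymic cortex, on 3 of 32. These 2 genes were below the filter on dim probes and were not tested, so all counts given here are over the other 41.

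Blood was taken from 32 female Welsh Pony mares 30 days after weaning. The labels name the weaning brutal for 16 mares and progressive for the other 16, and they say no more about how it was done. Each mare gave 1 array, the labels pair no brutal mare with a progressive one, and all mares were weaned, so no group without weaning is available as a baseline. The 4 slides held 8 arrays each, 4 of each group.

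The proteasome is built from a barrel-shaped core particle, whose outer alpha rings control entry and whose inner beta rings hold the cutting sites, and from a regulatory particle that caps it. The base of the cap contains a ring of ATPases that unfolds substrates and pushes them into the core, and its lid removes the ubiquitin chains that mark proteins for destruction. In leucocytes some cutting subunits can be exchanged for inducible ones, which gives the immunoproteasome that prepares peptides for presentation to T cells. Reticulocytes, the youngest red cells, still use proteasomes to clear proteins while they mature. Whether the blood of these mares held any was not measured.

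The values are log2 signals relative to the 75th percentile of the same array (called P75 in the plots), so 0 is the level of that percentile. That percentile ran from 339 to 646 intensity units over the arrays, and 53.0 to 65.9% of an array's spots stood well above background. As defining transcripts of blood, the haemoglobin chain HBB, the neutrophil calgranulin S100A8 and the T cell receptor component CD3E were well above background on all 32 arrays. So were the B cell protein MS4A1 and the monocyte receptor CD14. Of the 11 tested platelet genes 7 were so on all 32 arrays, while the platelet chemokine PPBP, not tested, was so on 1. In whole blood, fewer cells of a type and less RNA per cell cannot be told apart.

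The measurements rest on probes of 60 bases. The array's annotation places them on the horse assembly equCab1, and where a span is longer than the probe, the probe joins stretches that lie apart in the genome. The pair below carries the comparison of PSMB7, the subunit with the trypsin-like cutting site, with PSMB10, the inducible subunit that takes its place. The longest run of bases shared by these probes was 7 bases long, and capitals mark it. PSMB7 lies at chr25:10283174-10283233 on the plus strand and PSMB10 at chr3:18195257-18195443 on the minus strand.
PSMB7: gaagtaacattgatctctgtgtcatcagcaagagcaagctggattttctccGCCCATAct
PSMB10: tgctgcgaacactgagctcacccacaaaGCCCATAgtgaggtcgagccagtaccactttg

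Probes of the same gene overlap on this array, which matters for how far they count as separate measurements. PSME2, a subunit of the activator PA28, has 5 probes shifted by a few bases. The outermost 2 of them share a run of 54 bases, in capitals, at chrUn:180679375-180679434 and chrUn:180679369-180679428 on the plus strand.
PSME2, one end of the set: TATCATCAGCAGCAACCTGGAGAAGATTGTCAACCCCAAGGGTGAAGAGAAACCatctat
PSME2, other end of the set: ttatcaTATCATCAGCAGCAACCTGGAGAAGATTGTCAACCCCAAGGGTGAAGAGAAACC
PSMD13, a scaffold protein of the lid, was covered by probes in larger steps. A run of 20 bases, in capitals, is common to the 3 shown, which lie on the minus strand at chrUn:293759069-293759128, chrUn:293759089-293759148 and chrUn:293759109-293759721.
PSMD13, first probe: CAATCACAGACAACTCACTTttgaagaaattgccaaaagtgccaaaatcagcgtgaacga
PSMD13, second probe: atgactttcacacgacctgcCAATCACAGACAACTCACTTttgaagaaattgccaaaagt
PSMD13, last probe: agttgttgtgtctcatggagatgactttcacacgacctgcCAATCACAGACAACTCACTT

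Over the mares, the PSME2 pair correlated with r = 0.991, and the PSMD13 probes with r = 0.881 for the first and second, 0.912 for the second and last and 0.938 for the first and last. Of the 41 genes, 16 had several tested probes, which formed 70 pairs with a median r of 0.974. The 14 pairs that share no run of 15 or more bases had a median r of 0.848, with the lowest, 0.730, in PSMD5. Probes of a gene lay on opposite sides of 0 in the difference between the groups in 8 pairs, from PSMD1, PSMD9 and PSMD13, and the largest gap between differences of a pair was 0.067. These r values describe 32 mares measured on the same arrays with the same scaling.

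The comparison of the groups asks whether the kind of weaning left a difference in proteasome transcripts of the mares' blood 30 days later. None of the 41 genes differed between the groups past an adjusted p of 0.05 in limma, with a smallest adjusted p of 0.997. Over the whole array 0 of 26368 tested probes were called, a share of 0%. At an unadjusted p under 0.05 there were 0 of the 41 genes, beside 2.71% of all tested probes. The values of the groups overlapped for 41 of the 41 genes. The differences, progressive minus brutal, ran from -0.10 for PSMB2 to 0.17 for PSMG3, which are ratios of 0.931 and 1.13. The widest bounds of the 95% intervals correspond to ratios of 0.816 and 1.27, so larger changes than these lay outside the interval of every gene. Of the 41 genes, 25 were lower and 16 higher after progressive weaning, beside 55.1% lower and 44.9% higher of all tested probes. The median difference was -0.015 over the genes and -0.013 over all tested probes. The direction moved with the scaling, since 12 of 41 genes were lower with quantile normalisation, where the median over the genes was 0.018 and 49.6% of all probes were lower.

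**Figure D1:**
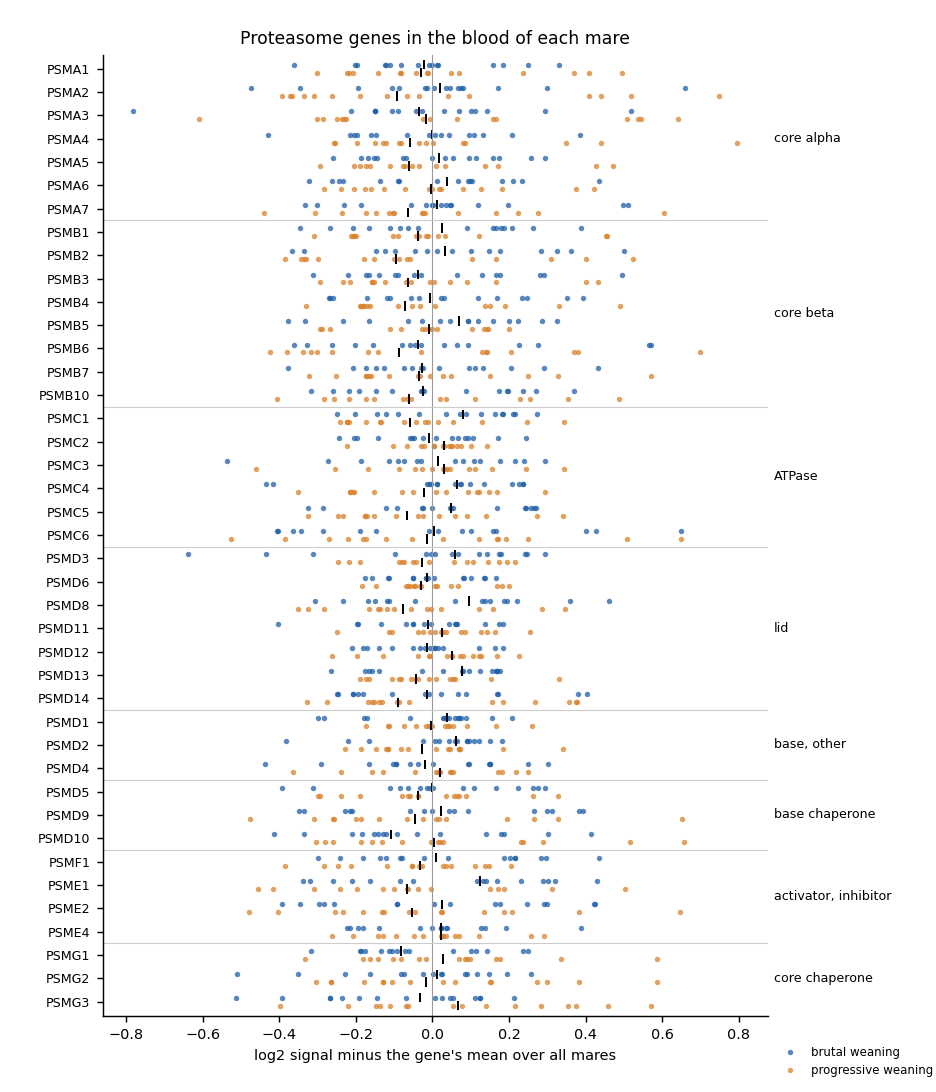
Each point is the log2 signal of a gene in 1 mare, minus that gene's mean over all mares, for the 41 tested proteasome genes (rows, grouped by role). Blue is brutal and orange is progressive weaning, 16 mares each (15 progressive for PSMB5), and black ticks are group medians. The groups overlap in every row, and the spread is widest for PSMA3 (SD 0.32) and narrowest for PSMD6 (SD 0.11).

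The 7 tested alpha subunits of the core, which form its outer rings, split into 4 lower and 3 higher genes, with a median difference of -0.0064. PSMA5 lay between 2.73 and 3.29 with a median of 3.01 in brutal mares, and between 2.70 and 3.46 with a median of 2.93 in progressive mares. The groups overlapped over nearly their whole range, and the difference was -0.015 (SE 0.071, limma p = 0.832). In brutal mares PSMA3 ran from 0.32 to 1.62 (median 1.07) and in progressive mares from 0.50 to 1.75 (median 1.09). The highest and the lowest mare of this gene lay further apart than for any other tested member, 2.68-fold, and both groups held high and low mares. Levels of PSMA7 had a lowest, median and highest value of 4.79, 5.14 and 5.64 in brutal and of 4.69, 5.06 and 5.73 in progressive mares. The lowest and the highest value both belonged to progressive mares. The differences were 0.055 (SE 0.11, limma p = 0.630) for PSMA3 and -0.044 (SE 0.088, limma p = 0.620) for PSMA7. PSMA1, PSMA2, PSMA4 and PSMA6 differed by 0.037, -0.025, 0.053 and -0.0064, each less than its own SE.

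All 8 tested beta subunits of the core were lower after progressive weaning, with a median difference of -0.039 and no p under 0.273, where 55.1% of all probes were lower. The direction turned with the scaling, since 2 of the 8 were lower with quantile normalisation and in the series table, and 0 of 8 with cell-type covariates. PSMB5, PSMB6 and PSMB7 carry the chymotrypsin-like, caspase-like and trypsin-like sites. For PSMB5 the range was 1.05 to 1.75 with a median of 1.49 after brutal weaning, and 1.13 to 1.62 with a median of 1.41 after progressive weaning. Its only spot was marked as an outlier on the array progressive 16, so that group has 15 values. The medians lay closer together than the mares of either group, with a difference of -0.047 (SE 0.071, limma p = 0.511). PSMB6 reached from 4.09 to 5.02 in brutal mares, with 4.41 as the median, and from 4.03 to 5.15 in progressive mares, with 4.36 as the median. Progressive mares held both ends of the range, and the difference was -0.038 (SE 0.11, limma p = 0.727). PSMB7 lay between 2.84 and 3.65 with a median of 3.19 in brutal mares, and between 2.90 and 3.79 with a median of 3.18 in progressive mares. The medians were nearly equal, with a difference of -0.0077 (SE 0.079, limma p = 0.923). In brutal mares PSMB2 ran from 4.03 to 4.90 (median 4.43) and in progressive mares from 4.01 to 4.92 (median 4.30). This structural beta subunit had the most negative difference of the 41 genes, -0.10 (SE 0.093, limma p = 0.273), and its groups still covered the same range. The other structural subunits PSMB1, PSMB3 and PSMB4 differed by -0.044, -0.040 and -0.034, of which PSMB4 was lower on 4 of 4 slides. Over the 41 genes, 3 were lower on all 4 slides, PSMB4, PSMC1 and PSMC4, and 2 were higher, PSMA1 and PSMG3. The share of all probes with the same side on all 4 slides was not counted.

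PSMB10 stood for the immunoproteasome among the genes of the rule. Levels of PSMB10 had a lowest, median and highest value of 4.92, 5.21 and 5.61 in brutal and of 4.83, 5.18 and 5.73 in progressive mares. The groups spanned the same levels, and the difference was -0.026 (SE 0.083, limma p = 0.756). The log2 ratio of PSMB10 to PSMB7 within an array cancels the scaling of that array, although its absolute size depends on the 2 probes and is no ratio of molecules. It ran from 1.85 to 2.29 with a median of 2.01 in brutal mares and from 1.68 to 2.41 with a median of 2.01 in progressive mares. The progressive mares reached both lower and higher. The mean was 2.03 ± 0.11 (SD, n = 16) and 2.01 ± 0.22 (SD, n = 16), a difference of -0.018 (two-sided permutation test with 100000 relabellings, p = 0.775). On single slides, with 4 mares a group, it ran from -0.12 on slide 4 to 0.061 on slide 3, with exact permutation p-values of at least 0.514.

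The 6 ATPases of the base, which unfold substrates and open the core's gate, were 3 lower and 3 higher, with a median difference of -0.028. For PSMC1 the range was 3.45 to 3.97 with a median of 3.78 after brutal weaning, and 3.46 to 4.05 with a median of 3.65 after progressive weaning. Its difference of -0.088 (SE 0.064, limma p = 0.176) was on the same side on 4 of 4 slides and under all 20 alternative settings fitted with limma, none of which called it. The settings reuse the same mares, and the shares of all probes that keep 1 side over slides or settings were not counted. PSMC5 reached from 4.08 to 4.68 in brutal mares, with 4.45 as the median, and from 4.08 to 4.75 in progressive mares, with 4.34 as the median. The groups overlapped almost fully, and the difference was -0.090 (SE 0.070, limma p = 0.210). In brutal mares PSMC6 ran from 0.59 to 1.64 and in progressive mares from 0.47 to 1.64, with a median of 0.98 in the latter. Here the spread between mares was the widest of the ATPases, an SD of 0.31, and the groups held the same highest level. PSMC6 differed by 0.019 (SE 0.11, limma p = 0.863). PSMC2, PSMC3 and PSMC4 differed by 0.018, 0.0062 and -0.061, and PSMC4 was lower on 4 of 4 slides.

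Of the 7 tested lid subunits, 3 were lower and 4 higher, with a median difference of 0.00065. PSMD14 is the enzyme that cuts the ubiquitin chain off a substrate, and the others form the scaffold around it. PSMD14 lay between 1.19 and 1.84 with a median of 1.42 in brutal mares, and between 1.11 and 1.81 with a median of 1.34 in progressive mares. High and low mares occurred in both groups, with a difference of 0.016 (SE 0.081, limma p = 0.849). In brutal mares PSMD6 ran from 2.17 to 2.51 (median 2.33) and in progressive mares from 2.17 to 2.55 (median 2.32). No other tested member varied as little between mares, and its difference was 0.00065 (SE 0.047, limma p = 0.989). Levels of PSMD8 had a lowest, median and highest value of 3.70, 4.10 and 4.47 in brutal and of 3.65, 3.93 and 4.35 in progressive mares. The brutal median was above the progressive one, but the ranges coincided, and the difference was -0.10 (SE 0.077, limma p = 0.223). PSMD3, PSMD11, PSMD12 and PSMD13 differed by -0.0024, 0.050, 0.050 and -0.038. Among the other subunits of the base, the large scaffolds PSMD1 and PSMD2 and the ubiquitin receptor PSMD4 differed by 0.016, -0.029 and 0.012.

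The chaperones that assemble the base, PSMD5, PSMD9 and PSMD10, differed by -0.049, -0.053 and 0.073, so that 2 were lower and 1 higher. PSMG1, PSMG2 and PSMG3 help to put the alpha ring together, PSMG1 and PSMG2 as a pair. All 3 were higher after progressive weaning, with a median difference of 0.069, beside 44.9% of all probes. With cell-type covariates 1 of the 3 was lower. For PSMG3 the range was 0.97 to 1.70 with a median of 1.45 after brutal weaning, and 1.09 to 2.06 with a median of 1.55 after progressive weaning. The highest brutal mare lay below 6 progressive mares, yet the rest of the ranges overlapped. PSMG3 had the smallest unadjusted p of the 41 genes, with a difference of 0.17 (SE 0.087, limma p = 0.0553) that was positive on 4 of 4 slides. The share of all probes with the same side on 4 of 4 slides was not counted. The 5 overlapping probes of PSMG3 gave differences of 0.17 to 0.20. Over the 20 alternative settings fitted with limma its difference ran from 0.099 to 0.23, and its adjusted p was at least 0.859 in each. The unadjusted p fell below 0.05 in 6 of them, with 0.0289 in the series table as the smallest. PSMG2 reached from 0.19 to 0.96 in brutal mares, with 0.71 as the median, and from 0.40 to 1.29 in progressive mares, with 0.69 as the median. The groups overlapped, and the difference was 0.062 (SE 0.084, limma p = 0.460). PSMG1 lay between 1.54 and 2.11 with a median of 1.77 in brutal mares, and between 1.52 and 2.44 with a median of 1.88 in progressive mares. The highest mare was a progressive one, and the difference was 0.069 (SE 0.072, limma p = 0.344).

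The activators and the inhibitor were all 4 lower after progressive weaning in the main scaling, with a median difference of -0.063, beside 55.1% of all probes. With quantile normalisation 2 of the 4 were lower, 3 in the series table and 1 with cell-type covariates. PSME1 and PSME2 together form PA28, the interferon-inducible activator, PSME4 is the activator PA200, and PSMF1 is an inhibitor of the core also called PI31. In brutal mares PSME1 ran from 4.85 to 5.62 (median 5.31) and in progressive mares from 4.73 to 5.69 (median 5.12). The groups overlapped, with a difference of -0.087 (SE 0.091, limma p = 0.343). Levels of PSME2 had a lowest, median and highest value of 4.82, 5.24 and 5.64 in brutal and of 4.73, 5.16 and 5.86 in progressive mares. The progressive mares held both the lowest and the highest level, and the difference was -0.039 (SE 0.10, limma p = 0.697). For PSMF1 the range was -1.03 to -0.29 with a median of -0.72 after brutal weaning, and -1.11 to -0.52 with a median of -0.76 after progressive weaning. Its difference was -0.088 (SE 0.072, limma p = 0.229). PSME4 reached from 0.83 to 1.45 in brutal mares, with 1.08 as the median, and from 0.80 to 1.35 in progressive mares, with 1.08 as the median. The medians of the groups were equal to the second decimal, and the difference was -0.00028 with an SE of 0.061.

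**Figure D2:**
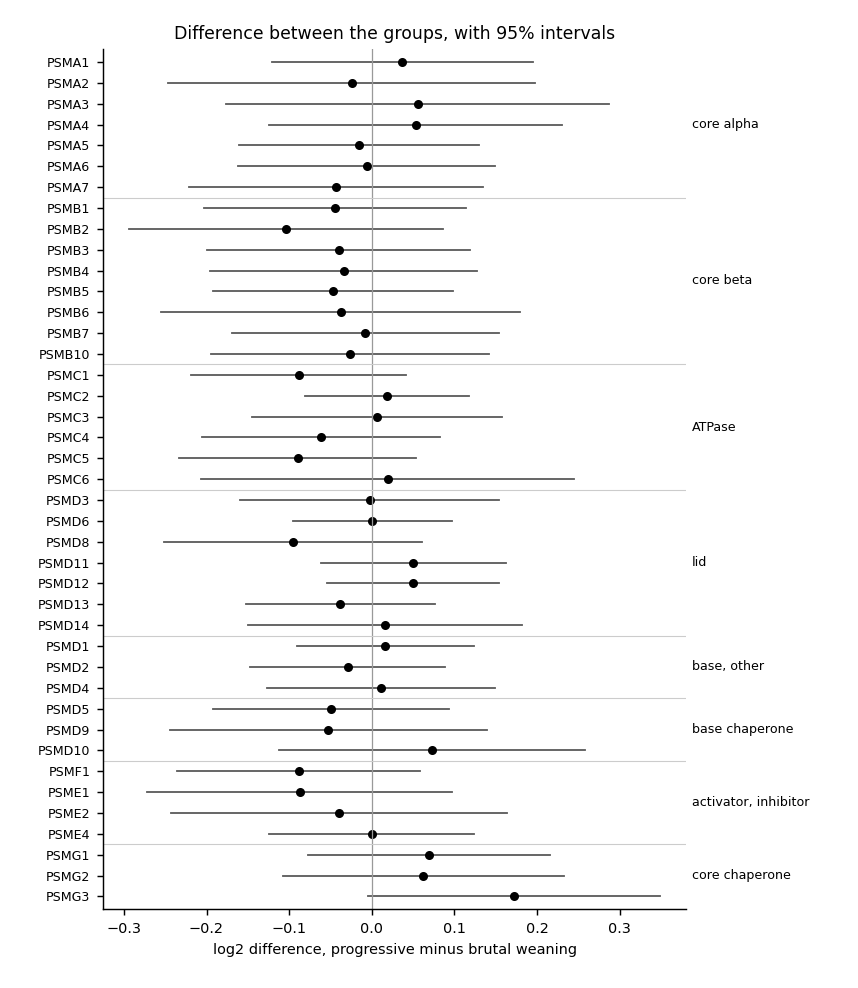
Log2 differences between the groups, progressive minus brutal weaning, for the 41 tested proteasome genes, with limma's 95% intervals as bars. Every interval includes 0, from PSMB2 at -0.10 to PSMG3 at 0.17, whose interval begins at -0.0041.

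No blood cell marker passed an adjusted p of 0.05 in limma. Of the tested markers, 16 of 17 neutrophil genes, 7 of 7 erythroid genes and 9 of 11 platelet genes were lower after progressive weaning, with median differences of -0.18, -0.47 and -0.34. Lower were also 11 of 17 T cell, 4 of 12 B cell, 11 of 14 NK and cytotoxic, 8 of 10 monocyte and 18 of 25 interferon-stimulated genes, with medians of -0.025, 0.045, -0.14, -0.058 and -0.040. The neutrophil score, a mean of z values over the tested markers, ran from -1.23 to 0.97 in brutal and from -1.67 to 1.26 in progressive mares, the erythroid score from -0.97 to 1.76 and from -1.01 to 0.90, and the platelet score from -0.62 to 1.06 and from -1.12 to 0.62. The erythroid list had 14 of its 20 genes on the array, of which 7 were tested and the others were too dim. With the neutrophil, T cell, erythroid and platelet scores as covariates, 7 of 41 proteasome genes (17.1%) were lower after progressive weaning, beside 51.4% of all probes, and the median difference was 0.035, beside -0.0025 over all probes. PSMG3 then differed by 0.14 (limma, p = 0.0535, unadjusted). In that fit 1 of the 41 genes, not PSMG3, had an unadjusted limma p under 0.05. The part of the cell types in the proteasome values was not tested further.

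Other genes of the pathway did not pass the threshold either. PSMB8 and PSMB9 are the inducible partners of PSMB5 and PSMB6, and they differed by 0.039 and -0.12. In the list of other proteasome genes, which includes them, 13 of 19 genes were on the array and all 13 were tested. It had 8 lower and 5 higher genes and a median difference of -0.015, and 0 passed the threshold or an unadjusted p of 0.05. The assembly factor POMP differed by -0.024, the proteasome-bound deubiquitinases USP14 and UCHL5 by 0.023 and 0.069, and ZFAND5, which activates proteasomes, by -0.10. NFE2L1, the transcription factor known to raise proteasome genes when degradation is impaired, was well above background on 0 of 32 arrays. Of its relatives and partners, NFE2L2, NFE2L3, NGLY1 and MAFG were measured and differed by -0.076, 0.059, 0.029 and -0.18. Among 12 tested ubiquitin and shuttle genes 7 were lower, with a median of -0.038. The smallest p there belonged to the shuttle factor RAD23B, with a difference of -0.21 (SE 0.12, limma p = 0.0976). None of these 29 pathway genes was called at an adjusted p of 0.05.

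Between mares the SDs of the proteasome genes were small beside those of all tested probes, which were not matched to them for brightness. Their SD over the 32 mares had a median of 0.21, and 38 of the 41 lay below the median SD of all tested probes, 0.31. Of the 41 genes, 40 were well above background on all 32 arrays, beside 21091 of the 26368 tested probes. The part of brightness in the smaller SDs was not tested. The highest mare exceeded the lowest by 1.30-fold in PSMD6 to 2.68-fold in PSMA3, with a median of 1.76-fold. The SD between mares had a median of 0.22 for the 15 core subunits and 0.18 for the 16 ATPase, lid and other base subunits. For the 20 genes whose probe was spotted 2 times on an array, the SD between the spots had a median of 0.058 and was below the SD between mares in 20 of 20. The spots of an array share its sample and hybridisation. With 1 array per mare, differences between mares and between arrays cannot be told apart. The array progressive 2 held the highest value of 17 of the 41 genes and progressive 7 that of 8, while brutal 16 held the lowest of 9 and brutal 10 that of 7. Without progressive 2, an alternative chosen after these values were seen, 30 of 41 genes were lower after progressive weaning, with a median difference of -0.046.

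The clearest pattern in these genes was that their levels varied together from mare to mare. The median r over the 820 pairs of the 41 genes was 0.455, beside 0.029 over all pairs of 8633 tested and named genes. All r values among members are descriptions over the same 32 mares (31 where PSMB5 is one of the pair), which share the array and its scaling. Of the pairs, 86.8% were above 0 and 43.3% above 0.5. The 15 core subunits had a median r of 0.718 over 105 pairs, all above 0, with 0.746 among alpha and 0.729 among beta subunits. PSMA5 and PSMB7 had the highest value of all pairs, 0.940, and PSMB6 and PSMB7 followed with 0.930. The alpha subunits PSMA2 and PSMA3 reached 0.889.

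The ATPases had a median r of 0.686 over 15 pairs, but these fell into separate kinds. PSMC4 and PSMC5 correlated with r = 0.841, PSMC1 and PSMC5 with 0.823 and PSMC3 and PSMC4 with 0.807. PSMC6 ran apart from them, with r = -0.512 against PSMC4, and its closest partner among the members was the lid enzyme PSMD14, at 0.752. The 7 lid subunits had a median r of 0.355 over 21 pairs. PSMD8 and PSMD13 reached 0.852 with each other, while PSMD3 and PSMD11 formed a looser pair at 0.501. PSMD12 had 0.589 with PSMD14, 0.481 with PSMD6 and 0.26 with PSMD11. With PSMD13, PSMD3 and PSMD8 it had 0.041, -0.038 and -0.139. Between the parts of the complex, the median r was 0.433 for core with ATPases, 0.490 for core with lid and 0.374 for ATPases with lid. Across the parts, PSMB2 of the core and PSMC5 of the base had r = 0.918.

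**Figure D3:**
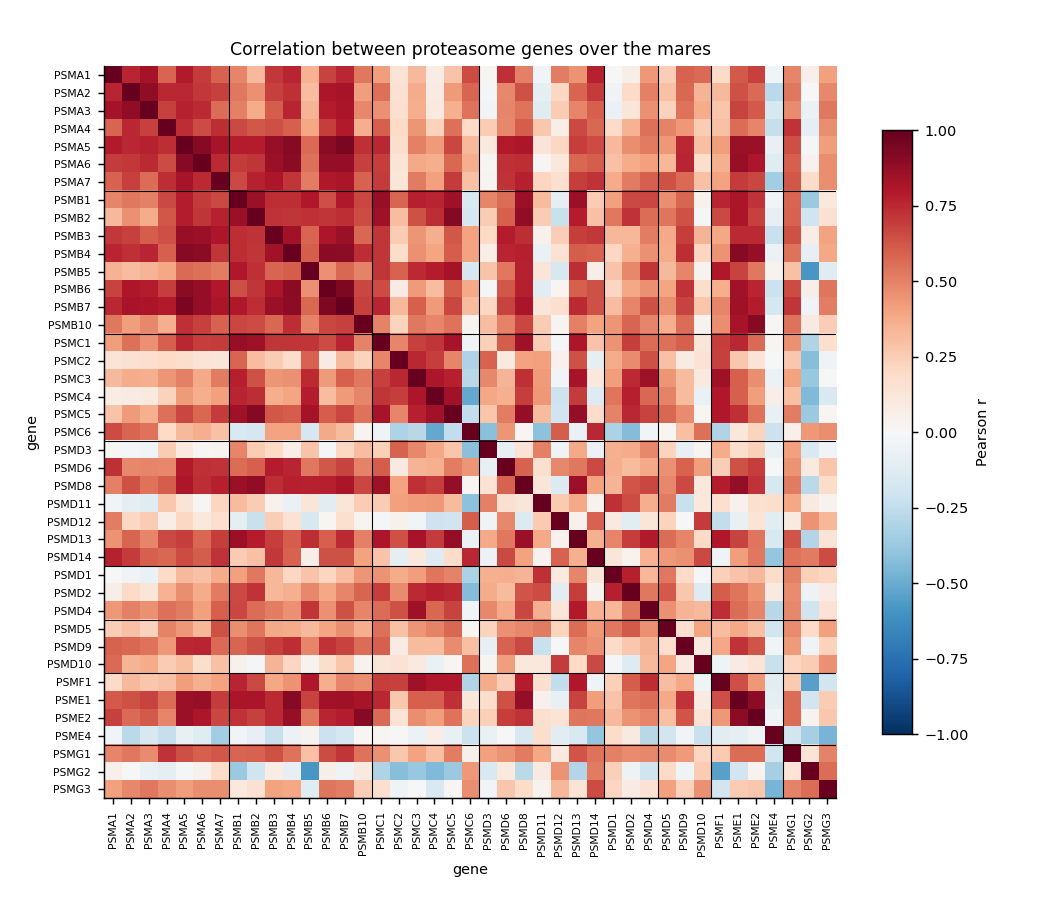
Pearson r over the mares for every pair of the 41 tested proteasome genes, from -1 (blue) to 1 (red), with black lines between the role groups in the order of the plot of values by mare. The alpha and beta blocks at the upper left are red throughout, while the row of PSME4 reaches 0.18 at most and the rows of PSMC6, PSMD12 and PSMG2 mix blue, pale and a few red cells.

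Some genes did not join this pattern. PSME4 had a negative r with 31 of the other 40 genes and a median r of -0.096, and PSMG2 a negative r with 23 and a median of -0.032. For PSMC6 and PSMD12 the medians were 0.079 and 0.094, although PSMC6 had 0.752 with PSMD14 and PSMD12 had 0.701 with PSMD10. The lowest values of all pairs were those of PSMG2 with PSMB5, -0.580, and of PSMG2 with PSMF1, -0.546. PSMG2 correlated most with its fellow assembly chaperone PSMG3, at 0.562, and with PSMG1, the protein it pairs with, at 0.138.

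The size of the co-variation depended on the scaling. The median r over the 41 genes was 0.419 with normexp background correction, 0.328 with the 75th percentile of the probes detected on all arrays, 0.292 with quantile normalisation and 0.276 in the deposited series table, against 0.12, 0.014, 0.019 and 0.011 over all genes. Under each of these, alpha subunits had a higher median r than lid subunits, with 0.622 and 0.236 under quantile normalisation. There the beta subunits had 0.432, below the ATPases with 0.509, and PSMB5 with PSMB10 had -0.105. In the series table the core had 0.516 and the core's assembly chaperones 0.547. After removal of the slide means the median over the 41 genes was 0.475, within single slides of 8 mares it was 0.440 to 0.545, and it was 0.442 without progressive 16 and 0.401 without progressive 2.

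PSMB10 and the PA28 genes varied together, as many core subunits did with PA28. PSMB10 and PSME2 correlated with r = 0.912 (rho 0.901, permutation adjusted p = 1.92e-05, r = 0.891 without the 2 farthest mares). On the 4 slides r was 0.955, 0.866, 0.932 and 0.923, and under quantile normalisation it was 0.850. PSME1 and PSME2 had r = 0.895 (rho 0.874, permutation adjusted p = 1.92e-05, r = 0.865 without the 2 farthest mares), and PSMB10 and PSME1 had r = 0.822 (rho 0.832, permutation adjusted p = 1.92e-05, r = 0.767 without the 2 farthest mares). The constitutive subunits PSMB6 and PSMB7 had r = 0.843 and 0.848 with PSME1 and 0.761 and 0.788 with PSME2, and PSMB4 had 0.910 with PSME1. Within slides PSME1 with PSME2 and PSMB10 with PSME1 gave 0.898, 0.903, 0.918 and 0.799 and 0.958, 0.892, 0.870 and 0.615. The inducible subunit PSMB9 followed them, with r = 0.898 (rho 0.894, permutation adjusted p = 1.92e-05, r = 0.861 without the 2 farthest mares) against PSME2 and r = 0.810 (rho 0.791, permutation adjusted p = 1.92e-05, r = 0.740 without the 2 farthest mares) against PSMB10, and within slides 0.957, 0.851, 0.944 and 0.833 and 0.918, 0.838, 0.944 and 0.667. PSMB8, also an inducible subunit, did not pass the threshold with any of these genes. Against PSMB10 its r was 0.179 (rho 0.207, permutation adjusted p = 0.434, r = 0.283 without the 2 farthest mares), with -0.0937, 0.0856, 0.429 and 0.512 within slides, and against PSMB9 it was 0.0655 (rho 0.0389, permutation adjusted p = 0.788, r = -0.0290 without the 2 farthest mares), with 0.0130, 0.0672, 0.486 and 0.124 within slides. PSMB8 was measured by 1 probe with 1 spot, with a median level of 2.42 in brutal and 2.41 in progressive mares, well above background on 32 of 32 arrays. These relations belong to a family of 25 pairs of PSMB5, PSMB6, PSMB7, PSMB8, PSMB9, PSMB10, PSME1 and PSME2. The smallest p that 100000 relabellings can give is 1e-05. Adjusted p-values are over the family, and the farthest mares are those farthest from the median of the first gene.

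**Figure D4:**
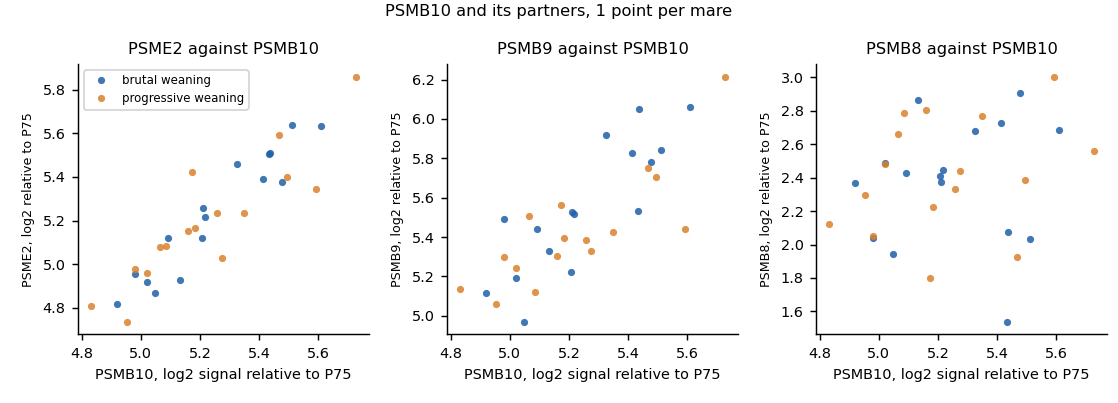
Log2 signal relative to the 75th percentile of the array for PSME2, PSMB9 and PSMB8 (vertical axes) against PSMB10 (horizontal axes), 1 point per mare, blue for brutal and orange for progressive weaning. PSME2 and PSMB9 rise with PSMB10 (r = 0.912 and 0.810), and PSMB8 shows no such line (r = 0.179).

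To see what the proteasome genes varied with, each of the 41 was set against 10 measures of an array: 8 scores of marker genes, the log2 of the 75th percentile signal and the percent of spots well above background. Of these 410 relations 114 had an adjusted p under 0.05 by Pearson's r, a share of 27.8%, and 117 by Spearman's rho. The share of all genes called at this threshold was not counted, so the counts called have no background. For each measure the share of all genes with an r beyond 0.5 in size is given beside that of the members. The count was 36 with quantile normalisation and in the series table, 53 with the 75th percentile of the probes detected on all arrays and 112 with normexp. The neutrophil score was called for 5 genes (12.2%). PSMG2 fell with the neutrophil score, with r = -0.846 (rho -0.825, permutation adjusted p = 0.000273, r = -0.781 without the 2 farthest mares). It was negative on each slide, -0.886, -0.536, -0.640 and -0.933, and in each group, -0.675 in brutal and -0.942 in progressive mares. PSMG3 had r = -0.704 (rho -0.731, permutation adjusted p = 0.000273, r = -0.738 without the 2 farthest mares), with -0.878, -0.724, -0.967 and -0.415 on the slides. The lid enzyme PSMD14 had r = -0.514 (rho -0.643, permutation adjusted p = 0.0129, r = -0.579 without the 2 farthest mares) and slide values of -0.733, -0.539, -0.473 and -0.559. Over the 3 other scalings r ran from -0.850 to -0.813 for PSMG2, from -0.776 to -0.712 for PSMG3 and from -0.672 to -0.543 for PSMD14.

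In the other direction, the activator PSME4 rose with the neutrophil score, with r = 0.559 (rho 0.559, permutation adjusted p = 0.00693, r = 0.576 without the 2 farthest mares) and slide values of 0.861, 0.711, 0.634 and 0.224. PSMB5 had r = 0.531 (rho 0.458, permutation adjusted p = 0.0130, r = 0.403 without the 2 farthest mares), but slide values of 0.866, -0.0903, 0.0480 and 0.623, so the relation did not hold on slides 2 and 3. Over all genes, 22.2% had an r beyond 0.5 in size with the neutrophil score, and 5 of the 41 proteasome genes did. The monocyte score was called for 7 genes (17.1%), 4 with a positive and 3 with a negative r. An r beyond 0.5 in size with it was reached by 6 of the 41, beside 20.2% of all genes. For the B cell score these were 1 of the 41 and 4.82% of all genes. PSMG2 and PSMG3 also fell with the monocyte score, with r = -0.748 (rho -0.761, permutation adjusted p = 0.000273, r = -0.709 without the 2 farthest mares) and r = -0.616 (rho -0.618, permutation adjusted p = 0.00205, r = -0.649 without the 2 farthest mares), and with slide values of -0.820, -0.567, -0.823 and -0.700 and -0.748, -0.666, -0.848 and -0.227. With the B cell score 1 gene was called, PSME4, with r = -0.553 (rho -0.512, permutation adjusted p = 0.00813, r = -0.444 without the 2 farthest mares) and slide values of -0.771, -0.676, -0.574 and -0.128.

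**Figure D5:**
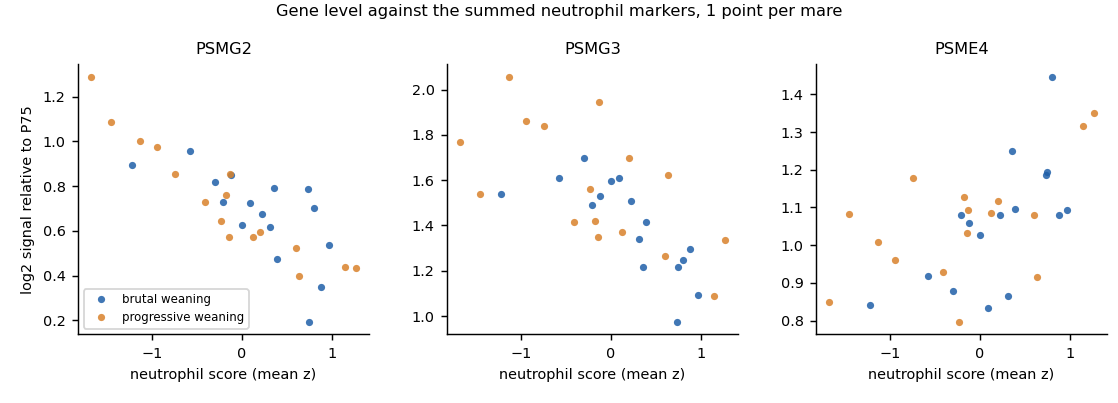
Log2 signal relative to the 75th percentile of the array (vertical axes) of PSMG2, PSMG3 and PSME4 against the neutrophil score, the mean z value of 17 marker genes (horizontal axes), 1 point per mare, blue for brutal and orange for progressive weaning. PSMG2 and PSMG3 fall along the score (r = -0.846 and -0.704) and PSME4 rises (r = 0.559).

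The erythroid score was related to 24 of the 41 genes (58.5%), all with a positive r, among them 12 of the 15 core subunits. PSMB2 had r = 0.713 (rho 0.709, permutation adjusted p = 0.000273, r = 0.629 without the 2 farthest mares), with slide values of 0.694, 0.742, 0.692 and 0.840. PSMC5 and PSMD8 had r = 0.693 (rho 0.702, permutation adjusted p = 0.00103, r = 0.654 without the 2 farthest mares) and r = 0.684 (rho 0.682, permutation adjusted p = 0.000781, r = 0.588 without the 2 farthest mares), with slide values of 0.528, 0.768, 0.715 and 0.863 and 0.565, 0.888, 0.603 and 0.813. An r beyond 0.5 in size was reached by 16 of the 41 genes, beside 18.0% of all genes, but by 2 of the 41 under quantile normalisation. There PSMB2 had 0.563 and PSMC5 0.403. The array's own 75th percentile moved with the same genes. Of the 41, 25 (61%) fell with its log2 value, and PSMB2 did so with r = -0.832 (rho -0.797, permutation adjusted p = 0.000273, r = -0.825 without the 2 farthest mares) and slide values of -0.692, -0.821, -0.997 and -0.885. That percentile is subtracted from every level, so the relation is partly built in, and how much of the erythroid relation it accounts for was not tested. Under quantile normalisation PSMB2 had r = -0.691 with the percentile, and 8 of the 41 genes had an r beyond 0.5 in size. In the main scaling 20 of the 41 did, beside 24.7% of all genes.

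The T cell score was called for 18 genes (43.9%), all with a positive r. The ubiquitin receptor PSMD4 had r = 0.723 (rho 0.674, permutation adjusted p = 0.000273, r = 0.692 without the 2 farthest mares), with slide values of 0.666, 0.634, 0.901 and 0.773, and 0.645 under quantile normalisation. PSMD13 and the ATPase PSMC3 followed with r = 0.684 (rho 0.677, permutation adjusted p = 0.000273, r = 0.661 without the 2 farthest mares) and r = 0.668 (rho 0.662, permutation adjusted p = 0.000891, r = 0.696 without the 2 farthest mares), and slide values of 0.625, 0.536, 0.784 and 0.834 and 0.663, 0.402, 0.770 and 0.797. The score of NK and cytotoxic genes was called for 21 genes (51.2%), all with a positive r, led by PSME1 with r = 0.607 (rho 0.648, permutation adjusted p = 0.00246, r = 0.586 without the 2 farthest mares) and slide values of 0.695, 0.627, 0.745 and 0.646. An r beyond 0.5 in size with it was reached by 9 of the 41, beside 9.97% of all genes, but by 2 under quantile normalisation and 1 with the 75th percentile of commonly detected probes. An r beyond 0.5 in size with the T cell score was reached by 14 of the 41 genes, beside 17.2% of all genes, and by 4 of them under quantile normalisation and 5 with the 75th percentile of commonly detected probes.

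The platelet score was called for 12 genes (29.3%), with 11 positive values and 1 negative, that of PSMG2. An r beyond 0.5 in size was reached by 10 of the 41, beside 10.7% of all genes, but by 4 under quantile normalisation and 3 with the 75th percentile of commonly detected probes. PSMC5 had r = 0.650 (rho 0.685, permutation adjusted p = 0.000615, r = 0.574 without the 2 farthest mares), with slide values of 0.658, 0.864, 0.131 and 0.809, so slide 3 showed little of it. The score of interferon-stimulated genes was called for 1 member only. An r beyond 0.5 in size with it was reached by 0 of the 41, beside 1.62% of all genes. The member called was PSME2, with r = 0.441 (rho 0.425, permutation adjusted p = 0.0435, r = 0.287 without the 2 farthest mares), slide values of 0.445, 0.572, 0.367 and 0.118 and an adjusted p above the threshold by Spearman's rho. For the percent of spots well above background 0 of 41 genes were called by Pearson's r, the smallest adjusted p being 0.0712, and 1 by Spearman's rho. An r beyond 0.5 in size with this percent was reached by 0 of the 41, beside 1.23% of all genes. Adjusted p-values are over the 410 relations. The farthest mares are those farthest from the median of the measure.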

How the data were processed

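RNA from whole blood of 32 mares was hybridised on 1-colour Agilent arrays, 1 per mare. For each spot the scanner files deposited give an intensity, already background-subtracted by Agilent Feature Extraction 10.10.1.1, per the file headers and the submitters' processing notes. The deposited series table of 25619 spots holds log2 values, made by a normalisation not given in the sources used here. It served as an alternative.

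Control and outlier spots (2483 of the latter, 851 of them on the array progressive 16) were left out, spots of a probe were averaged, and log2 intensity was taken relative to each array's 75th percentile. No spot was saturated. A probe was tested if 8 or more of a group's 16 arrays had it well above background, which kept 26368 of 43987. Of all probes, 26009 were named by the files, 157 through RefSeq and 17821 stayed unnamed. Groups were compared by limma 3.58.1 (R 4.3.3) on all tested probes with Benjamini-Hochberg adjustment, without covariates. Correlations used 100000 relabellings (Python 3.11.15, scipy 1.17.1, numpy 2.4.6, pandas 2.3.3) and plots matplotlib 3.10.9. The fit was tested on simulated data. All members may be named, and other genes come from fixed pathway and marker lists. The members and lists were chosen with earlier results of these data known. Alternatives were 4 other scalings, other filters, slide as a block, single slides, left-out slides and arrays, array weights, limma's trend and robust options, cell-type covariates and averaging all probes of a gene. The number of arrays limits the precision, and a p-value sets a difference or an r against the variation between these mares.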

Additional observations from a re-analysis of the deposited data

How the results depend on the processing

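No proteasome gene passed an adjusted p of 0.05 in limma under any alternative, and the smallest adjusted p was 0.859. At an unadjusted p under 0.05 there were at most 1 of 41 genes per alternative. The number of genes lower after progressive weaning, 25 in the main fit, was 12 with quantile normalisation and in the series table, 14 on slide 1 alone, 7 with cell-type covariates, 22 without progressive 16 and 30 without progressive 2, which was left out after its values were seen. PSMA1, PSMC1 and PSMG3 kept their side of 0 in all 20 planned settings. These settings reuse the same arrays, and the share of all probes that kept their side was not counted. The number of correlations called, 114 in the main scaling, was 36 with quantile normalisation, 36 in the series table, 53 with the 75th percentile over commonly detected probes, 72 without slide 2 and 69 without slide 4. With 8 arrays each, slides 1 to 4 alone gave 0, 4, 2 and 1, where fewer samples were tested. Other causes were not tested. Without progressive 16 the count was 107 and without progressive 2 it was 112. The median r among members ran from 0.276 to 0.545 and was above 0 in each alternative. No paired analysis was possible because the numbers given to mares follow accession order and pair no brutal mare with a progressive one.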
